A study of Mus musculus with 8 samples.

Results

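The transcription factors that hold the lung's cell lineages were followed from whole lung to the tips of its growing septa. They comprise Meox2, Hoxa5, Tcf21 and Foxf1 of the mesenchyme, Nkx2-1, Foxa1, Foxa2 and Gata6 of the epithelium, and Sox17 and Sox18 of the endothelium. Members were found by gene symbol alone, as every probe set annotated to 1 of these symbols and to no other gene. Of the 10 factors, 9 were found, with 13 probe sets among the 12488 of the array, and Nkx2-1 is not analysed here. Gata6 had 3 probe sets and Sox17 and Sox18 had 2 each.

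Both groups came from C57/Bl6 mice at postnatal day 6, when secondary septa divide the air spaces. For the tip group, laser capture, which lifts chosen areas out of a section under the microscope, was used on frozen lung to collect the tips of secondary septa, pooled over many animals of several litters. The other group was RNA of pooled whole lung, a tissue that itself contains septal tips. The work was done in experiment 1 and, with other litters, in experiment 2. Every RNA, once amplified, went on 2 Affymetrix arrays run on separate occasions, which gave 8 arrays of 4 RNA samples, 2 per group. The comparison asks which genes are enriched at the tips.

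As background, Meox2 and Hoxa5 are homeobox proteins, and Tcf21 is a basic helix-loop-helix protein. All of them act in lung mesenchyme. Foxf1 is a forkhead protein that answers hedgehog signals from the epithelium. Foxa1 and Foxa2 are forkhead proteins able to bind closed chromatin, and with Nkx2-1 and the zinc finger protein Gata6 they switch on surfactant and secretory genes. Sox17 and Sox18 belong to the SoxF group and direct the growth of blood vessels. Septal growth joins these lineages at the tip, where myofibroblasts, capillary endothelium and alveolar epithelium lie side by side.

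Values are signals, the brightness of a probe set after each array was scaled to the same mean, and the log2 difference is tips minus lung. A probe set counts as above background where its signal passes the 95th percentile of 19 control probe sets of bacterial and yeast sequence on that array. That level lay between 314 and 568 on lung arrays and between 487 and 1244 on tip arrays, the highest being on array 2 of the experiment 1 tip RNA. Repeat arrays of a tip RNA also differed more, with an SD of the repeat difference of 0.99 and 0.72 (log2) in tips against 0.58 and 0.53 in lung. The 3′ to 5′ signal ratio of Gapdh, a sign of RNA length, was 1.95 to 5.49 in lung and 4.18 to 12.8 in tips. On array 2 of the experiment 1 tip RNA, where it was 7.79, the Gapdh 5′ signal of 964 was under background. The ratio of Actb did not separate the groups, with 38.8 to 104 in lung and 23.0 to 139 in tips. Its 5′ signal was under background on array 1 of the experiment 1 tip RNA. The Tfrc ratio was 1.17 to 27.9 in lung and 1.87 to 16.0 in tips. As the Tfrc 5′ signal was under background on every array, that ratio cannot show RNA length. Of 7453 probe sets tested with limma, 1084 (14.5%) were higher and 1022 (13.7%) lower in tips at an adjusted p under 0.05. That split was 618 to 1012 after quantile normalization and 271 to 1512 after median centring, and the median difference of all probe sets went from 0.35 to 0.03 and to -0.19. Bulk RNA cannot tell fewer cells of a type from less RNA per cell.

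Among the factors, 1 of 11 tested probe sets was lower in tips (Meox2) and 0 were higher, against the 13.7% and 14.5% of all probe sets. At an unadjusted p under 0.05 there were 2 of 11, Meox2 and Hoxa5, both lower, beside 3251 of all 7453 probe sets tested. The remaining 2 probe sets, of Foxf1 and Gata6, were too dim to test. The median difference of the 11 was 0.13, against 0.35 over all probe sets. Arrays of the groups did not overlap for 3 of the 11 probe sets, against 42.0% of all.

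**Figure D1:**
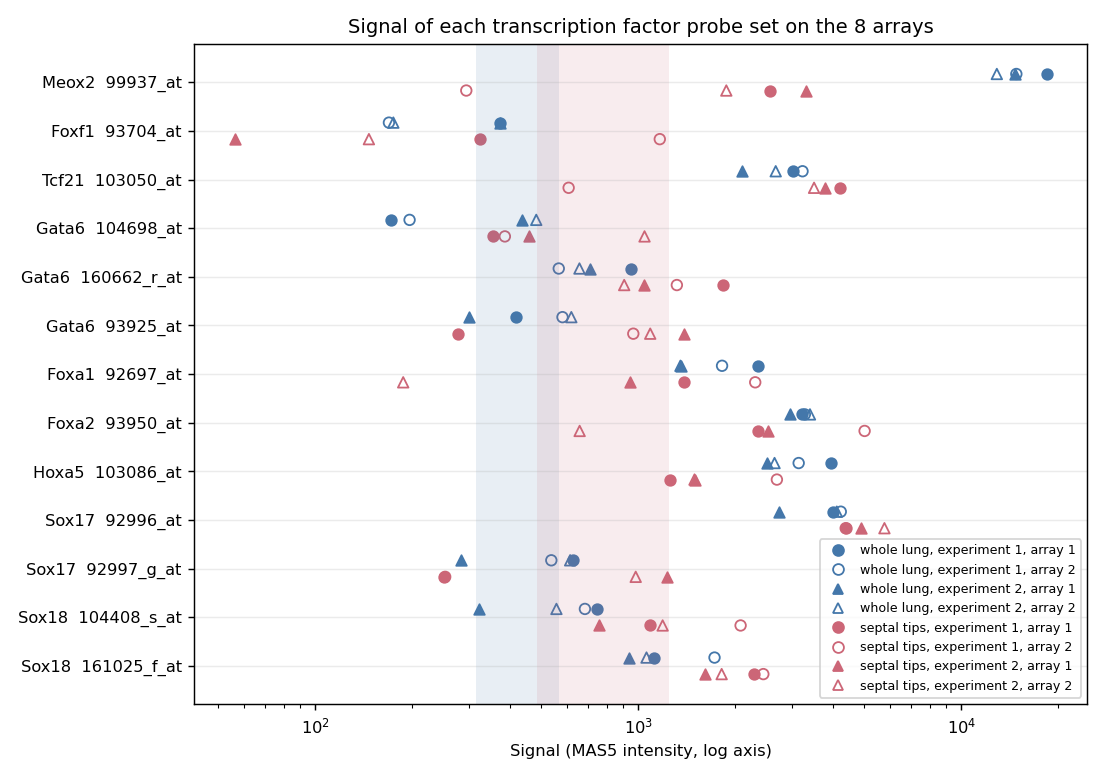
Signal of the 13 probe sets on each of the 8 arrays, on a log axis, with whole lung in blue and septal tips in red, experiment 1 as circles, experiment 2 as triangles and array 2 open. Shaded bands are the range of background in lung (314 to 568) and in tips (487 to 1244). Meox2 separates the groups by the widest gap of these probe sets.

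Meox2 fell at the tips. Its protein, also named Gax, marks mesoderm and is known for holding back growth in vascular smooth muscle and endothelium. In every set of 4 signals given here the order is array 1 and array 2 of experiment 1, then array 1 and array 2 of experiment 2. Probe set 99937_at read 18409, 14810, 14641 and 12887 in lung and 2558, 293.5, 3305 and 1873.5 in tips. All 4 tip arrays lay under all 4 lung arrays, and the signal on array 2 of the experiment 1 tip RNA was under that array's background. The RNA means were 15184 ± 2012 in lung and 2008 ± 823 in tips (SD, n = 2 RNA samples each), a lung signal 7.56-fold that of tips. The log2 difference was -3.16 ± 0.42 (SE; 95% interval -4.10 to -2.22; limma adjusted p = 0.0017), the 49th lowest of 7453. Relative to the median of all probe sets it was -3.51.

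The size of the Meox2 difference varied between experiments, at -3.93 in experiment 1 and -2.39 in experiment 2. Array pairs gave -2.78 and -5.08 in experiment 1 and -2.10 and -2.69 in experiment 2. Without array 2 of the experiment 1 tip RNA it was -2.51, with an adjusted p of 0.0020. It stayed past the threshold in 23 of 24 other ways of processing, between -3.88 and -2.44. The exception set every value below 1244, the highest background, to that level, and gave -2.84 with an adjusted p of 0.0551. Leaving out the probe sets at that floor on every array brought the adjusted p to 0.0287. Bright probe sets were lower in tips more often in general: of the brightest 2485, 28.0% were lower and 14.6% higher, and Meox2 is among them.

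Hoxa5, a homeobox factor known to shape the trachea, airways and alveoli from the mesenchyme, was the other member that was lower in every array pair. Probe set 103086_at read 3945, 3138, 2509 and 2642 in lung and 1258, 2687, 1497 and 1493 in tips. The groups overlapped at 1 point, since array 2 of the experiment 1 tip RNA read higher than both lung arrays of experiment 2. Its log2 difference of -0.80 ± 0.33 (95% interval -1.55 to -0.06; unadjusted p = 0.038, limma adjusted p = 0.094) did not pass the threshold. The experiments gave -0.88 and -0.73. It passed after median centring, at -1.34 with an adjusted p of 0.021, and was at -0.94 without the experiment 1 tip RNA.

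The sequences upstream of Meox2 and Hoxa5, the members lower in all 4 array pairs, are shown here as the 250 bases before the start site in RefSeq (build GRCm38.p6), read along the gene's strand. Promoters were matched for 5 of the 9 factors. The array data name no build, so these coordinates belong to RefSeq alone. Capitals mark matches to any of 6 short motifs, searched on both strands. These were the box of promoters spelled TATAAA, the box spelled CCAAT, the forkhead motif written TGTTTAC, the motif of Gata proteins written AGATAA, the motif of Sox proteins written ACAATG, and the homeobox motif written TAATTA.
Meox2, chr12:37108290-37108539, plus strand: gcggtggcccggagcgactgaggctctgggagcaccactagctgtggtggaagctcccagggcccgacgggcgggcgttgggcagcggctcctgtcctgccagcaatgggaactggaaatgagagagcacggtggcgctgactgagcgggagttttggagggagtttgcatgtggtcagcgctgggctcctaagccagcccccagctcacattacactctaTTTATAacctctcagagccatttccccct
Hoxa5, chr6:52204588-52204837, minus strand: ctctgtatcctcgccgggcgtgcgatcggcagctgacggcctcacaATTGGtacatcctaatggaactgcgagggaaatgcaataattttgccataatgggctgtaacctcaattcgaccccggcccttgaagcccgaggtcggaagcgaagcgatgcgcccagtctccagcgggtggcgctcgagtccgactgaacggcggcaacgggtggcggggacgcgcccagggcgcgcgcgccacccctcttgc
The Meox2 window had 62% G+C, 12 CpG dinucleotides and 1 motif match, the TATA box letters on the opposite strand starting at -29. The Hoxa5 window had 63.6% G+C, 28 CpG and 1 match, CCAAT letters on the opposite strand starting at -204. Over 32851 mouse promoters of this length, 12.4% held the TATA letters, 33.8% CCAAT, 3.17% the forkhead, 9.99% the GATA, 10.7% the SOX and 4.84% the homeobox letters. The median promoter had 6 CpG and 52.4% G+C. A match describes letters and is no evidence of binding.

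Tcf21 marks lung mesenchyme, lipid-holding fibroblasts included. Probe set 103050_at read 3011, 3225, 2089 and 2664 in lung and 4221, 609, 3777 and 3502 in tips. Of the tip arrays, 3 lay above all lung arrays, and array 2 of the experiment 1 tip RNA lay below all of them and below its own background. The log2 difference was -0.12 ± 0.40 (95% interval -1.03 to 0.78; limma adjusted p = 0.83). Without that array it was 0.51, with an adjusted p of 0.265. It was also positive with that array kept when the experiment 1 lung RNA was left out (0.066) or values under 1244 were set to that level (0.091), so no direction is given for Tcf21.

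The forkhead gene of the mesenchyme, Foxf1, was at background. Its probe set 93704_at read 372, 169, 372 and 174.5 in lung and 324, 1166, 56.4 and 147 in tips. It was above background on none of the 8 arrays, so no difference is given for it. Its brightness was at the 27th percentile of the array, under the 40th percentile needed for the test.

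Markers of fibroblasts and myofibroblasts were higher in sum in tips, where Meox2 and Hoxa5 read lower. The summed signal of all 7 (Pdgfra, Col1a1, Col1a2, Col3a1, Eln, Acta2 and Tagln) was 115324 to 151933 on lung arrays and 163925 to 285990 on tip arrays. Its largest parts were Eln, at 55840 in lung and 100432 in tips on average, and Col1a2, at 30383 and 68748. Neither passed the test, and Acta2 was at 17565 and 17743. Tagln, the marker that passed, was at 585.5 and 2692. On every lung array 6 of the 7 were above background, on every tip array all 7, and none was at 0. By the test 1 of 7 rose and 0 fell, beside 14.6% and 15.1% of the 5642 genes tested at their brightest probe set. Pdgfra read lower, by -0.83 with an adjusted p of 0.086. The counts were 3 and 0 after quantile normalization, 5 and 0 after cyclic loess, 1 and 1 after median centring, and 0 and 0 without the lung RNA of either experiment. Without the tip RNA of experiment 1 they were 2 and 0, and without that of experiment 2 they were 3 and 1. Their part in the mesenchymal factors' values was not tested.

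**Figure D2:**
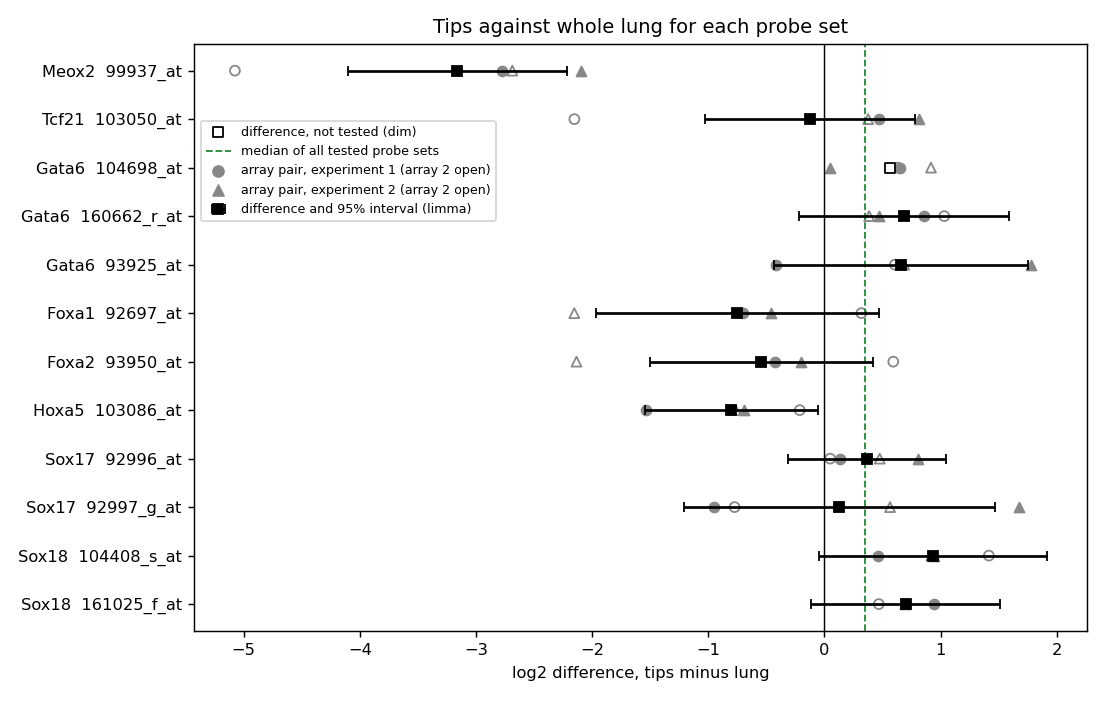
log2 difference, tips minus lung, of the 12 probe sets that were above background on at least 1 array. Squares are the differences with 95% intervals from limma, an open square was too dim to test, grey points are the 4 array pairs, and the dashed line is the median of all probe sets at 0.35. The interval of Meox2 and that of Hoxa5 leave out 0, and the interval of Hoxa5 ends at -0.06.

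Foxa1 and Foxa2, which act together in the airway and alveolar epithelium, did not pass the threshold. Foxa1 probe set 92697_at read 2346, 1817.5, 1355 and 1351 in lung and 1388, 2302, 944 and 187 in tips. Foxa2 probe set 93950_at read 3208, 3279, 2940.5 and 3401 in lung and 2352, 5021, 2529 and 658.5 in tips. In tips both had their highest signal on array 2 of experiment 1 and their lowest on array 2 of experiment 2, where neither was above background, and both groups overlapped. The log2 difference of Foxa1 was -0.75 ± 0.54 (95% interval -1.97 to 0.47; adjusted p = 0.308), and that of Foxa2 was -0.54 ± 0.43 (95% interval -1.51 to 0.42; adjusted p = 0.347). The lung repeats of Foxa2 spread little by comparison, and the RNA means were 3207 ± 51.6 in lung against 2641 ± 1480 in tips (SD, n = 2).

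Both Foxa genes had unlike values in the experiments. For Foxa1 these gave -0.19 in experiment 1 and -1.31 in experiment 2, and for Foxa2 0.08 and -1.17. Whether these differ was not tested. Without the experiment 1 tip RNA Foxa1 was at -1.59 and Foxa2 at -1.19. Without the experiment 2 tip RNA they were at 0.090 and 0.10. Leaving out only array 2 of the experiment 2 tip RNA gave -0.32 for Foxa1 and -0.11 for Foxa2. A fit on 1 tip RNA takes its spread from the lung samples and the prior.

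Gata6, needed for the endoderm and for the maturing of alveolar epithelium, had positive differences on all 3 probe sets, none past the threshold. Probe set 160662_r_at read 946, 567, 711 and 658 in lung and 1833, 1317, 1042 and 905 in tips. Probe set 93925_at read 420, 583, 299 and 621 in lung and 276, 965, 1390 and 1089 in tips. The first was higher in tips in 4 of 4 array pairs and the second in 3 of 4, with the groups overlapping on both. Their log2 differences were 0.69 ± 0.40 (95% interval -0.22 to 1.59; adjusted p = 0.213) and 0.66 ± 0.48 (95% interval -0.43 to 1.76; adjusted p = 0.313). After quantile normalization, median centring and cyclic loess they were smaller, at 0.21, 0.14 and 0.23 for the first and 0.14, 0.12 and 0.15 for the second. Probe sets of like brightness also read higher in tips in general. Their median difference was 0.46 between the 60th and 80th percentile, which holds 160662_r_at. Between the 40th and 60th percentile, which holds 93925_at, it was 0.55.

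The third Gata6 probe set, 104698_at, was too dim to test, being above background on 1 of 4 lung and 1 of 4 tip arrays. It read 171, 196, 438 and 483 in lung and 354, 386, 459 and 1046 in tips, with a log2 difference of 0.56. After cyclic loess that difference was -0.018. The tested Gata6 probe sets had their largest differences of all alternatives when a tip RNA was left out, and not the same RNA. Without the experiment 2 tip RNA 160662_r_at was at 0.99, and without the experiment 1 tip RNA 93925_at was at 1.16. The names of Gata6 160662_r_at, of Sox17 92997_g_at and of both Sox18 probe sets carry suffixes that Affymetrix gives to sets that share probes or break a design rule.

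The genes that Foxa1, Foxa2, Gata6 and Nkx2-1 are known to drive were higher in tips where they passed the test. Of 8 such genes tested, 3 rose and 0 fell, with a median difference of 0.79, beside 14.6% higher, 15.1% lower and a median of 0.31 over all genes tested. After median centring 1 rose, with a median of 0.25, after quantile normalization 5 (1.21) and after cyclic loess 6 (1.30). Leaving out an RNA gave 0 and 1 (lung, experiments 1 and 2) and 2 and 5 (tips, experiments 1 and 2). Sftpc, surfactant protein C of type II cells, was at 27130 in lung and 102537 in tips on average, a difference of 1.95 ± 0.40 (adjusted p = 0.0086). Scgb1a1, the secretoglobin of club cells, differed by 1.49 ± 0.48 (adjusted p = 0.048), and the mucin Muc1 by 0.95 ± 0.31 (adjusted p = 0.048). Sftpc was past the threshold in 22 of 24 alternatives and lost the call without the experiment 1 lung RNA (1.64, adjusted p = 0.136). Scgb1a1 passed in 9 of 24 and Muc1 in 8 of 24, both failing without the lung RNA of either experiment. Scgb1a1 also lost the call without the experiment 1 tip RNA (0.80) and Muc1 without that of experiment 2 (0.81).

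Marker sums of type II and airway cells were higher on tip arrays, while the type I markers and those of epithelium in general split. Of 5 general markers, 1 (Krt19) rose and 0 fell by the test, beside 14.6% and 15.1% of all genes. Krt19 was above background on 0 of 4 lung arrays, and after median centring 0 rose. Krt8 and Krt18 also read higher, while Epcam (-0.80) and Cdh1 (-0.13) read lower. The summed signal of 3 type II markers (Sftpb, Sftpc and Sftpd) was 22518 to 38019 on lung arrays and 99039 to 115006 on tip arrays. Most of this sum was Sftpc, at 27130 in lung and 102537 in tips on average. By the test 1 of 3 (Sftpc) rose, while Sftpb (0.69) and Sftpd (0.42) did not pass. The summed signal of 3 airway markers (Scgb1a1, Foxj1 and Cyp2f2) was 14524 to 24475 in lung and 32993 to 83794 in tips. Most of it was Scgb1a1, at 17323 and 53091 on average. By the test 2 of 3 rose, and 0 after median centring. Of the type I markers, Hopx was at 38400 in lung and 11226 in tips on average and Ager at 5290 and 10415 (0.89, adjusted p = 0.084). Their median difference of -0.43 was 0.16 after quantile normalization, where 1 was called higher and 0 lower, and 0.23 after cyclic loess. In lung, 3 of 3 type II markers were above background on every array, and 2 of 3 in tips. Their part in the values of the epithelial factors was not tested.

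Sox18, whose loss of function disturbs vessels and hair, was higher in tips in every array pair on both of its probe sets without passing the threshold. Probe set 104408_s_at read 746, 684, 322 and 558 in lung and 1086, 2074, 756 and 1190 in tips. Probe set 161025_f_at read 1116, 1722, 934 and 1061 in lung and 2278, 2439, 1605 and 1812 in tips. The first did not overlap between groups, although the highest lung signal, 746, was just under the lowest tip signal, 756, and the second overlapped through array 2 of the experiment 1 lung RNA. The differences were 0.94 ± 0.43 (95% interval -0.04 to 1.92; adjusted p = 0.129) and 0.70 ± 0.36 (95% interval -0.11 to 1.51; adjusted p = 0.164). After quantile normalization, median centring and cyclic loess the first was at 0.46, 0.39 and 0.46 and the second at 0.35, 0.16 and 0.39. Over all probe sets between the 40th and 60th percentile of brightness, which holds the first, the median difference was 0.55. Between the 60th and 80th, which holds the second, it was 0.46. Both experiments gave alike values, 0.94 and 0.93 for the first probe set and 0.70 and 0.70 for the second. Without the experiment 2 tip RNA the Sox18 differences were 1.23 and 0.92.

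Sox17, its relative in arterial endothelium, gave unlike results on its probe sets. Probe set 92996_at read 3996, 4236.5, 2732 and 4118 in lung and 4401, 4388, 4894 and 5783 in tips. All tip arrays were above all lung arrays, yet the difference was small, 0.37 ± 0.30 (95% interval -0.31 to 1.04; adjusted p = 0.365), near the median of all probe sets. Over probe sets between the 80th and 100th percentile of brightness, which hold 92996_at, the median was -0.11. After quantile normalization, median centring and cyclic loess the difference of 92996_at was 0.52, -0.17 and 0.59. Probe set 92997_g_at read 627, 538, 283 and 615 in lung and 251, 252.5, 1232 and 982 in tips. It was lower in tips in experiment 1, by -0.86, and higher in experiment 2, by 1.12, for a mean of 0.13 ± 0.59 (adjusted p = 0.885) that was -0.37 after quantile normalization.

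Endothelial markers were above background on every array and higher in sum in tips. The 6 markers (Pecam1, Cdh5, Kdr, Tek, Tie1 and Cldn5) summed to 32084 to 36362 on lung arrays and 50871 to 77565 on tip arrays. In tips the largest part of the sum was Tie1 on 161184_f_at, at 6409 in lung and 25587 in tips on average. The name of that probe set also carries a suffix for shared probes or a broken design rule. The other Tie1 probe set, 99936_at, was too dim to test, with a log2 difference of 1.31. Cdh5, at 10329 and 14533, and Kdr, at 4544 and 4714, did not pass. By the test 3 of 6 rose and 1, Tek, fell, beside 14.6% and 15.1% of all genes. After median centring 1 rose and 1 fell, without the experiment 1 lung RNA 1 rose and 0 fell, and without that of experiment 2 none of the 6 passed in either direction. Their part in the Sox17 and Sox18 values was not tested.

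**Figure D3:**
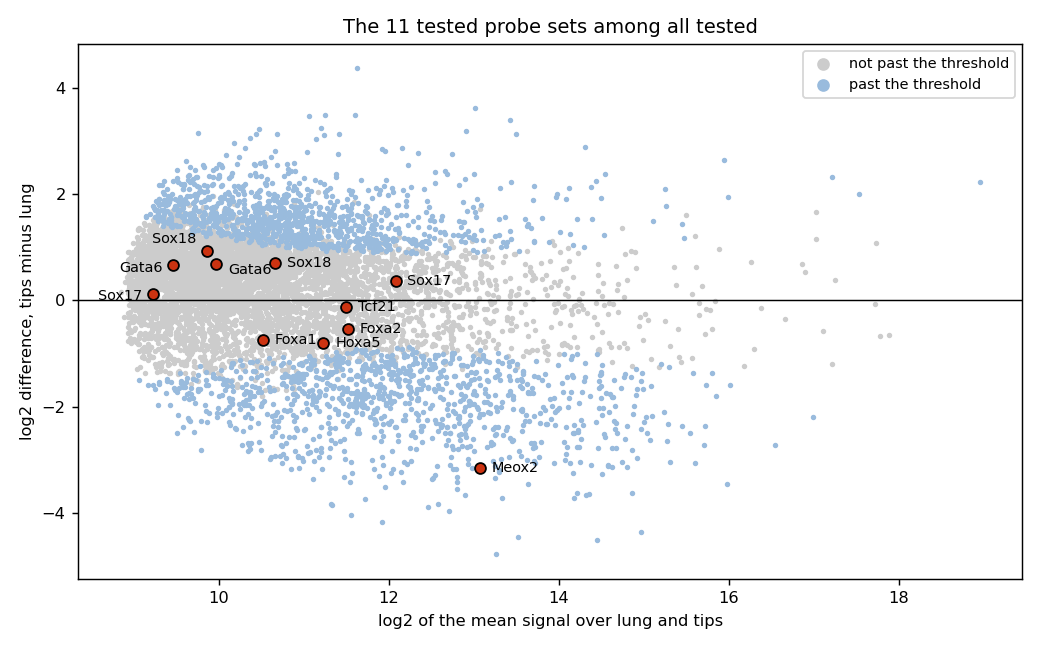
Each point is 1 of the 7453 tested probe sets, placed by the log2 of its mean signal over lung and tips and by its log2 difference, tips minus lung. Light blue points pass the threshold, and the 11 tested probe sets of the factors are red. Meox2, at -3.16, is the only red point outside the grey band.

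Other transcription factors of the same lineages moved in both directions, as genes did in general. With every value under 1244 set to that level, probe sets at the level on every array had no variance left, and none of the 7453 passed by limma (2430 at an unadjusted p under 0.05). Without those, 851 of 6788 passed. Of 18 mesenchymal factors tested, 2 rose and 3 fell, beside 14.6% and 15.1% of all 5642 genes tested. Their median was 0.48 (-0.06 after median centring). The counts were 1 and 0 without the experiment 1 lung RNA, 1 and 1 without that of experiment 2, and 4 and 3 without the tip RNA of either. Tbx2, a T-box repressor, rose by 2.44 ± 0.31 (adjusted p = 0.0016). Its probe set 92705_at gave 2.38, and the third, 161146_r_at, -0.04. Snai2 and Zeb1, zinc finger repressors known from the change of epithelium to mesenchyme, differed by -1.80 ± 0.32 (adjusted p = 0.0052) and -1.32 ± 0.29 (adjusted p = 0.0114). Without the experiment 1 lung RNA neither passed, with adjusted p = 0.070 and 0.089, and Zeb1 also failed without that of experiment 2 (0.077) and after quantile normalization (-0.82, adjusted p = 0.090).

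Of 23 epithelial factors, 3 rose and 6 fell, beside 14.6% and 15.1% of all genes, with a median of 0.00. The counts were 1 and 4 after quantile normalization (median -0.40), 0 and 7 after median centring (-0.54), and 0 and 2 when either lung RNA was left out. The helix-loop-helix inhibitor Id2 differed by -2.33 ± 0.32 (adjusted p = 0.0019), and Hopx, a homeodomain protein of type I cells, by -1.76 ± 0.31 (adjusted p = 0.0051). Foxp1, a forkhead repressor of airway development, differed by -1.93 ± 0.38 (adjusted p = 0.0079), while its other tested probe set, 96183_at, gave 0.64. After quantile normalization Hopx was at -1.01, with an adjusted p of 0.054. Foxp1 lost the call without the experiment 1 lung RNA (adjusted p = 0.086) and without that of experiment 2 (adjusted p = 0.0505).

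Of 13 endothelial factors, 1 rose and 1 fell, beside 14.6% and 15.1% of all genes. Their median of 0.28 was -0.21 after quantile normalization. The counts were 0 and 3 after median centring, 2 and 2 after cyclic loess, 0 and 1 without either lung RNA, and 2 and 1 or 4 and 3 without the tip RNA of experiment 1 or 2. Hif1a, the oxygen-regulated factor, differed by -2.97 ± 0.41 (adjusted p = 0.0020), and its other probe set by -3.03. Klf2, a factor induced by blood flow, was above background on only 1 of 4 lung and 2 of 4 tip arrays, and differed by 1.74 ± 0.53 (adjusted p = 0.039). It passed in 8 of 23 alternatives and failed without the experiment 1 lung RNA (1.20), the experiment 2 lung RNA (2.27) and the experiment 1 tip RNA (1.31). Ets2 differed by 0.90 with an adjusted p of 0.053.

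The known targets and partners of the endothelial and mesenchymal factors also split. Of 13 tested, 2 rose and 4 fell, beside 14.6% and 15.1% of all genes, with a median of -0.20. The counts were 1 and 2 without the experiment 1 lung RNA and 0 and 2 without that of experiment 2. Ptch1, the hedgehog receptor whose ligand also induces Foxf1, differed by -2.74 ± 0.31 (adjusted p = 0.0011), but its other probe set, 104031_at, gave 1.23. The adhesion molecule Vcam1 differed by -2.38 ± 0.32 (adjusted p = 0.0018), with 1.30 on its other tested probe set, 92560_g_at. Tek, the angiopoietin receptor, differed by -1.72 ± 0.29 (adjusted p = 0.0044). Tek lost the call without the lung RNA of experiment 1 (adjusted p = 0.055) or of experiment 2 (adjusted p = 0.058). Different probe sets of Ptch1 and of Vcam1 thus differed in sign.

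Relatives by family were taken by symbol, as every other Fox, Gata, Sox, Hox, Nkx or Meox gene on the array, close or distant. Of 79 such genes, 43 were tested. Of these 10 rose and 2 fell, with a median of 0.64, beside 14.6% higher, 15.1% lower and a median of 0.31 over all genes. The counts were 4 and 1 after quantile normalization, 3 and 2 after median centring and 7 and 3 after cyclic loess, with medians of 0.15, 0.096 and 0.18. Leaving out the lung RNA of experiment 1 gave 1 and 0, and that of experiment 2 gave 3 and 0. In the Fox family 4 of 12 rose and 1 fell, in the Sox family 2 of 10 rose and 1 fell, and in the Hox family 3 of 15 rose and 0 fell. No Fox relative rose after quantile normalization, after median centring, with array 1 only or without either lung RNA. The Sox and Hox counts of higher genes were 1 and 2 after quantile normalization, both 1 after median centring, and 1 and 0 without the experiment 1 lung RNA. No Gata relative of 4 passed, also at an unadjusted p under 0.05. The Fox and Gata medians of 0.50 and 0.23 were -0.04 and -0.32 after median centring.

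Among relatives, Sox4 differed by 1.92 ± 0.32 (adjusted p = 0.0040), with 0.55 on its other probe set, and was at 1397 in lung and 5729 in tips. Hoxb1 differed by 2.53 ± 0.43 (adjusted p = 0.0044), although it was above background on only 1 of 4 lung arrays. It lost the call without the experiment 1 lung RNA, at 2.09 with an adjusted p of 0.069. Meox1, the single relative of Meox2, was at 516 in lung and 819 in tips, with a difference of 0.53 ± 0.50 (adjusted p = 0.428). Whether the relatives' differences differ from those of the factors was not tested.

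**Figure D4:**
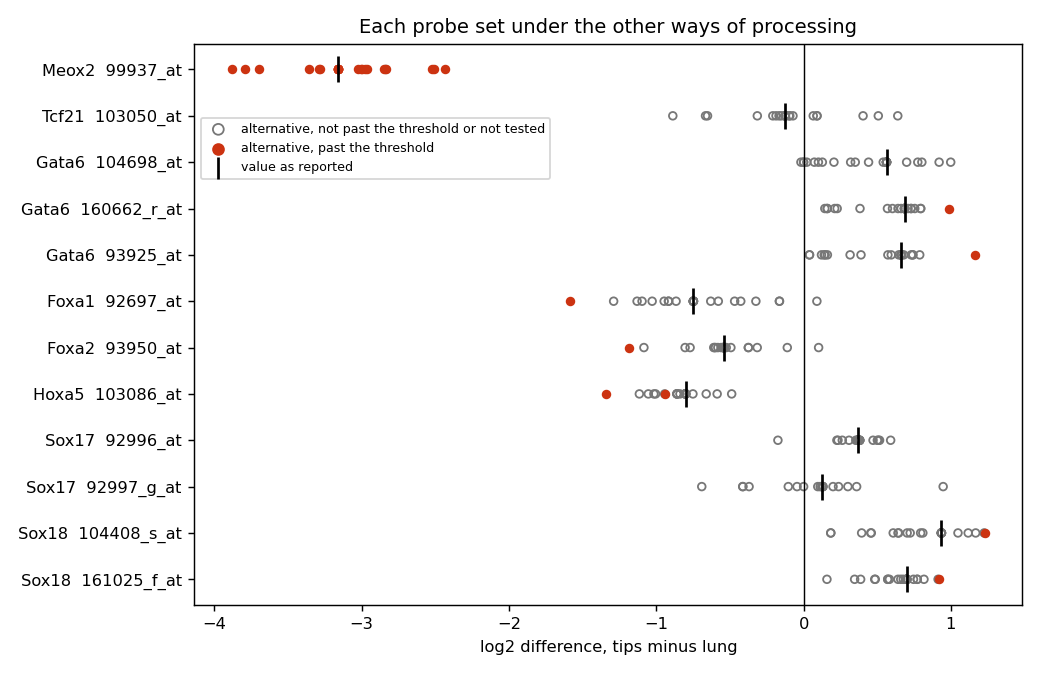
log2 difference of 12 probe sets of the factors under each of the 24 other ways of processing, 1 circle each, with red circles past the threshold and the black bar at the value as reported. The circles of Meox2 reach from -3.88 to -2.44, while those of Tcf21, Foxa1, Foxa2, Sox17 and Gata6 104698_at fall on both sides of 0.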

How the data were processed

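Gene expression was measured in 8 arrays of 4 RNA samples, with groups taken from the sample titles, since the tip samples' description names whole lung. Per the submitters' processing notes, MAS5 was the authors' tool for the deposited intensity values, which are linear and share a trimmed mean across arrays. A version of it and a genome build are not given in the sources used here. Per the labels, RNA was extracted with PicoPure and amplified with RiboAmp. That amplification is written for every tip array and for 1 lung array, while the design text says both tissues were amplified in parallel.

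Each array was scaled to a trimmed mean of 1500.9 (2% left out at each end), an offset of 150.1 was added and log2 taken, which understates differences of dim probe sets. The 66 control probe sets and those under the 40th percentile of mean log2 signal were left out. Arrays of an RNA were averaged, and tips compared with lung by limma 3.58.1 in R 4.3.3 (lmFit, eBayes with trend), with Benjamini-Hochberg adjustment over 7453 probe sets and a threshold of 0.05. With 2 residual and 7.05 prior degrees of freedom, the median standard error was 0.40, so the number of RNA samples limits the precision. Experiments share processing by design, and deviations of same-numbered samples correlated at 0.05. The code was tested on simulated data. Symbols came from the platform annotation (10855 probe sets with 1 symbol, 396 with several, 1237 with none), and 10839 were updated by gene ID. All members were named, and of each other list its counts and the 3 genes of smallest p. Gene lists used the brightest tested probe set of each gene. Members and lists were chosen with earlier results of these data known. Of the 24 alternatives, 3 were added after seeing the data.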

Additional observations from a re-analysis of the deposited data

Results flagged for a closer look

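Of 26 groups of 4 arrays looked at for an array far from the others, 2 were picked out. Chance gives about 1 in 20 for 4 independent values, but each group held 2 RNA samples with 2 arrays each, so that rate need not hold. For Tcf21 103050_at the array picked out was array 2 of the experiment 1 tip RNA, at 609 beside 3502 to 4221, a gap of 0.897 of the group's range on the log2 scale. For Sox17 92996_at it was array 1 of the experiment 2 lung RNA, at 2732 beside 3996 to 4236.5, a gap of 0.866 of the range. Sox17 92997_g_at was lower in tips on both array pairs of experiment 1 and higher on both of experiment 2. The difference of experiment 2 exceeded that of experiment 1 by 1.98 (log2), which was not tested.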

How the results depend on the processing

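Of 24 alternatives, the count of 2106 probe sets past the threshold moved to 1229 with array 1 of every RNA, 1269 with a floor at 792, and 0 with a floor at 1244 (limma; 2430 at an unadjusted p under 0.05), or 851 once probe sets at that floor on every array were left out. Leaving out 1 RNA gave 349 to 3324, fewest without the experiment 1 lung RNA. Among the factors 1 probe set passed, 2 after median centring, 0 with the floor at 1244 (limma; 2 at an unadjusted p under 0.05) and 1 to 5 without 1 RNA, the 5 being without the experiment 1 tip RNA and 4 without that of experiment 2.

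Tcf21 turned positive with that floor (0.091, also with probe sets at the floor left out), with array 1 only (0.64) and without array 2 of the experiment 1 tip RNA (0.51), and ranged from -0.65 to 0.40 without 1 RNA. Without 1 RNA, Foxa1 ranged from -1.59 to 0.090 and Foxa2 from -1.19 to 0.10. Sox17 92996_at was -0.17 after median centring. Sox17 92997_g_at was -0.37 after quantile normalization, -0.41 after median centring and after cyclic loess, -0.10 with array 2 only and -0.69 to 0.95 without 1 RNA. The causes were not tested. With the experiment as a replicate block 2452 probe sets passed, Meox2 alone among the factors (-3.16, adjusted p = 5.63e-06), so the block changed no call of theirs. Signals near background limit what can be said of Foxf1, of Gata6 and of the dimmer Sox17 probe set. The RNA samples number 2 per group, so their own variation enters the reported limma p-values with only 2 residual degrees of freedom. The prior, estimated over the probe sets tested, adds 7.05 and so carries more of the weight.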
